A study of Mus musculus with 9 samples.

Results

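Transcripts of 10 apolipoprotein genes, Apoa1, Apoa2, Apoa4, Apoa5, Apob, Apoc1, Apoc3, Apoe, Apoh and Apom, were followed in 9 orthotopic mouse liver tumors. The genes were chosen by name, every entry that named one of them was summed in each tumor, and they made up 10 of the 52163 gene symbols and 10 of the 48254 loci in the tables. Abundance was measured by bulk RNA sequencing as FPKM, fragments per kilobase of transcript scaled to the mapped fragments of the library, a unit that corrects for transcript length and library size. All tumors came from Hepa1-6, a mouse hepatoma line, grown as tumor pieces implanted in the left liver lobe of male C57BL/6 mice. The mice received PBS or anti-PD-1 antibody, which blocks an inhibitory receptor of T cells, by intraperitoneal injection 5 times at intervals of 4 days. The 3 groups held 3 tumors each: PBS, and nonresponsive or responsive to the antibody. The nonresponsive tumors were the largest and the responsive tumors the smallest of the antibody-treated mice, those in between were set aside, and a difference between these 2 groups therefore cannot be told apart from one that goes with tumor size. Tumors were freed of surrounding tissue before RNA was taken.

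Apolipoproteins are the protein components of lipoproteins, the particles that carry triglyceride and cholesterol in blood. Hepatocytes make most of them: apolipoprotein B is the structural protein of very-low-density and low-density lipoproteins, apolipoproteins A-I and A-II form high-density lipoprotein (HDL), and the smaller C and E proteins move between particles and steer lipolysis and receptor uptake. Macrophages also make apolipoprotein E, and the intestine is the main site of apolipoprotein A-IV in the adult.

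Apoa1, Apoc3, Apoa4 and Apoa5 lay next to each other on chromosome 9 in the deposited coordinates, from 46139878 to 46183217, and Apoc1 and Apoe lay together on chromosome 7, from 19423406 to 19433113. Apoa2 was at chromosome 1 (171052623 to 171053948), Apob at chromosome 12 (8027648 to 8066835), Apoh at chromosome 11 (108234180 to 108305222) and Apom at chromosome 17 (35347973 to 35351026). These positions are counted from 1 and are those of the tumor tables; the submitters' processing notes name mm8, the positions differ from those of GRCm38, and the build they belong to was not established. Genes that shared an entry in any tumor were joined into 1 locus. This touched Apoe, which shared an entry with its neighbour Tomm40 in PBS replicate 1, and Apoa2, which shared one with Nr1i3 in responsive replicate 3. The summed level of the Apoa2 locus equalled the entry that names Apoa2 in all 9 tumors. The Apoe locus also held entries naming Tomm40 without Apoe. It was slightly above the entry naming Apoe in every antibody-treated tumor, for example 4864 against 4802 FPKM in nonresponsive replicate 3.

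RefSeq promoter sequences (GRCm38.p6) were matched for 8 of the 10 genes by symbol, all but Apoc1 and Apoc3. The 250 bases before the start site are shown for 3 of them: Apoa2 and Apoh, whose levels kept the steadiest ratio of any pair of members over the 9 tumors, and Apoe, whose level varied least. Each is written 5′ to 3′ on the strand of its gene, and capitals mark matches to the motifs searched. Apoa2 is at chr1:171224804-171225053 on the plus strand, Apoh at chr11:108395047-108395296 on the plus strand and Apoe at chr7:19699189-19699438 on the minus strand.
Apoa2: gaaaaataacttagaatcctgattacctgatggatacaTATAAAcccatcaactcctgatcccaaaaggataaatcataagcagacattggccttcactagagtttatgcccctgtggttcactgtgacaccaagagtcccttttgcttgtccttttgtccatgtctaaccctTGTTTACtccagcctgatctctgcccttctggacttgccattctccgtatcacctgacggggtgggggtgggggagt
Apoh: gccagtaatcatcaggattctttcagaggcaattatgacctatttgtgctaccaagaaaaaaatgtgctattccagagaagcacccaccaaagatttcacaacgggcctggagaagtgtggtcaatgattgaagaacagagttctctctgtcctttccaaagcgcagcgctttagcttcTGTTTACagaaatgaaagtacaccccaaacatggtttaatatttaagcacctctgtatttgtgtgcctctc
Apoe: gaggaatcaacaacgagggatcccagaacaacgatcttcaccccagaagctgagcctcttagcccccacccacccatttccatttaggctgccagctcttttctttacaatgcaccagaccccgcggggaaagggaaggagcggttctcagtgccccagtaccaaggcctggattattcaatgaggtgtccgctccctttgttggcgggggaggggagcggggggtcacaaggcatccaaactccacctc

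The FOXA motif TGTTTAC began 77 bases before the Apoa2 start and 71 bases before the Apoh start, and stood in 2 of the 12 member windows against 3.17% of all 32851 windows of this length. The TATA motif TATAAA was 212 bases before the Apoa2 start and was found in 5 member windows, of 4 genes, against 12.4% of all windows. The C/EBP motif TTGCNNAA stood in 2 member windows, of Apoa2 at another start site and of Apob, against 9.56% of all windows. The HNF4A motif CAAAGTCCA was in 0 of the 12 windows, against 0.384% of all windows. Both strands were searched, some windows of 1 gene overlap, and N stands for any base. The Apoe window shown held none of these motifs. TATAAA can be read on both strands of the same stretch, which happened at 1 other Apoe start site, where the matches overlapped.

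The tumors were not alike before any comparison of groups. PBS replicate 1 had the lowest level of 9 of the 10 genes and the lowest hepatocyte markers, with a summed FPKM over 28 hepatocyte marker loci of 1035 against 5776 or more in every other tumor. Nonresponsive replicate 2 carried pancreatic acinar genes, with a summed FPKM over 8 such genes of 1657 against at most 63.3 in the other tumors. The fetal liver and hepatoma marker Afp, encoding alpha-fetoprotein, was between 18.2 and 25.3 FPKM in the PBS tumors, but 0.321 FPKM in nonresponsive replicate 1 and 0.646 FPKM in responsive replicate 1. It was 56.5 FPKM in nonresponsive replicate 3 and 53.9 in responsive replicate 2, above every PBS tumor. Nonresponsive replicate 1 and responsive replicate 1, with the lowest Afp, held the highest levels of 9 of the 10 apolipoprotein genes within their groups. Their summed FPKM over 12 hepatoma and fetal liver marker loci, 73.4 and 79.4, was also the lowest of their groups. Not all markers of that list were low there, since Igf2 was the highest of its group in both, at 5.47 and 6.13 FPKM. No 2 tumors were copies of each other, since at most 0.00634% of loci had identical values in any pair.

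**Figure D1:**
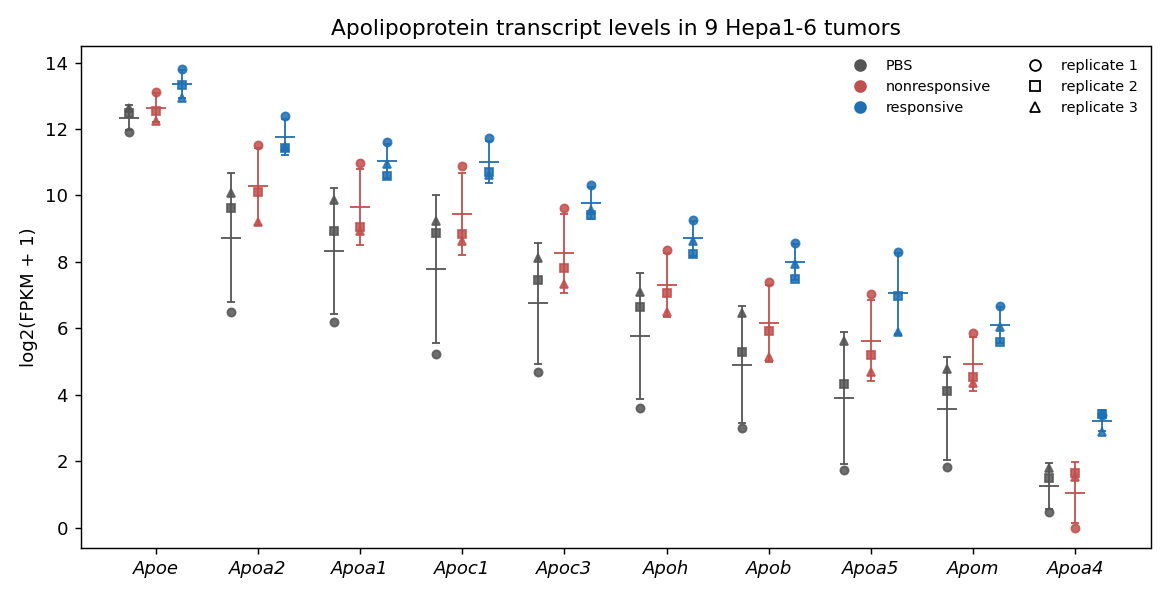
Level of each apolipoprotein gene as log2(FPKM + 1) on the vertical axis, with genes ordered by their mean. Each point is 1 tumor (color gives the group, shape the replicate number of the labels), horizontal ticks are group means and bars are ± 1 SD (n = 3). The responsive tumors sit above all PBS tumors for each of the 10 genes, PBS replicate 1 is lowest for all but Apoa4, and Apoe spans a narrower range than the others.

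The genes kept the same order of abundance in most tumors. Ranked by their mean of log2(FPKM + 1), a per-length scale, the order was Apoe, Apoa2, Apoa1, Apoc1, Apoc3, Apoh, Apob, Apoa5, Apom and Apoa4. Neighbours in this order held their places in 9 of 9 tumors, except Apoa1 and Apoc1, and Apoa5 and Apom, each of which held in 7 of 9. The mean difference between these neighbours, 0.26 ± 0.36 and 0.66 ± 0.65 (log2, SD over 9 tumors), was no larger than about its own spread. The step from Apoe down to Apoa2 was 2.53 ± 1.24 and that from Apom down to Apoa4 was 3.02 ± 1.21. The tests between groups used limma on log2(FPKM + 1), over the loci that reached an FPKM of 1 in 3 or more of the 6 tumors of a comparison, a filter that all 10 members passed each time. A gene was counted as different at an unadjusted p under 0.05, and the p adjusted over all loci (Benjamini-Hochberg) is given beside it.

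Apob encodes the structural protein of very-low-density and low-density lipoprotein. Its FPKM was 6.93, 37.8 and 87.0 in the PBS tumors, 168, 59.2 and 34.0 in the nonresponsive tumors and 377, 177 and 243 in the responsive tumors, each in the order of replicates 1, 2 and 3. Every responsive tumor lay above every other tumor, while the nonresponsive and PBS tumors overlapped. Against nonresponsive tumors the responsive mean was higher by 1.84 ± 0.61 (log2, SE from limma, limma adjusted p = 0.835), and against PBS by 3.08 ± 0.88 (limma adjusted p = 0.246). The nearest nonresponsive value to the responsive group, 168 FPKM in replicate 1, was close to the lowest responsive value of 177.

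Apoa1 and Apoa2 encode the main proteins of HDL. Apoa1 stood at 72.7, 483 and 937 FPKM in the PBS tumors, 2022, 529 and 484 in the nonresponsive tumors and 3099, 1546 and 1975 in the responsive tumors. Apoa2 stood at 89.2, 779.8 and 1081 FPKM in the PBS tumors, 2915, 1102 and 589.8 in the nonresponsive tumors and 5326, 2735 and 2835 in the responsive tumors. For both genes the responsive tumors were above all PBS tumors, and nonresponsive replicate 1 reached into the responsive range. The responsive mean of Apoa1 exceeded the PBS mean by 2.72 ± 0.95 (log2, limma adjusted p = 0.247) and the nonresponsive mean by 1.40 ± 0.63 (limma adjusted p = 0.854). The corresponding differences of Apoa2 were 3.03 ± 0.98 (limma adjusted p = 0.246) and 1.48 ± 0.65 (limma adjusted p = 0.841).

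Apoc1 and Apoc3 encode small exchangeable proteins that slow the clearance of triglyceride-rich particles, apolipoprotein C-III being an inhibitor of lipoprotein lipase action. Apoc1 was at 36.2, 469.9 and 605 FPKM in the PBS tumors, 1878, 459 and 395 in the nonresponsive tumors and 3399.5, 1655 and 1559 in the responsive tumors. Apoc3 was at 24.7, 175 and 275 FPKM in the PBS tumors, 780.2, 226 and 161 in the nonresponsive tumors and 1281, 682 and 759 in the responsive tumors. For both, nonresponsive replicate 1 was inside the responsive range and the other nonresponsive tumors were inside the PBS range. Apoc1 differed between responsive and PBS tumors by 3.23 ± 1.11 (log2, limma adjusted p = 0.246), and Apoc3 by 3.02 ± 0.90 (limma adjusted p = 0.246). Against nonresponsive tumors Apoc1 differed by 1.56 ± 0.68 (limma adjusted p = 0.841) and Apoc3 by 1.51 ± 0.63 (limma adjusted p = 0.837).

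Apoa5 encodes an activator of triglyceride hydrolysis that circulates at very low concentration. It was at 2.32, 18.9 and 48.7 FPKM in the PBS tumors, 129, 35.5 and 24.8 in the nonresponsive tumors and 313, 125 and 58.1 in the responsive tumors. Its range was the widest of the 9 members above 0 in all tumors as a ratio of FPKM, 135-fold from PBS replicate 1 to responsive replicate 1 and 16.6-fold without PBS replicate 1. Responsive replicate 3, at 58.1 FPKM, lay below nonresponsive replicate 1. The responsive mean differed from PBS by 3.16 ± 1.11 (log2, limma adjusted p = 0.247) and from nonresponsive tumors by 1.42 ± 0.81 (limma adjusted p = 0.930).

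Apoa4, which encodes an intestinal and, in mice, also hepatic protein of chylomicrons and HDL, was the least abundant member and had its own pattern. Its FPKM was 0.389, 1.81 and 2.44 in the PBS tumors and 9.53, 9.65 and 6.32 in the responsive tumors. In the nonresponsive tumors it was listed at 0 in replicate 1 and was at 2.14 and 1.88 FPKM in replicates 2 and 3. Responsive tumors lay above all others, and PBS and nonresponsive tumors overlapped. A listed 0 need not mean absence, and nonresponsive replicate 1 was the tumor of its group in which the other 9 members were highest. Responsive exceeded nonresponsive tumors by 2.17 ± 0.48 on the log2(FPKM + 1) scale (limma adjusted p = 0.835), which was 1.64 without that tumor (limma adjusted p = 0.211). The pseudocount of 1 understates changes of genes at this level. Among enterocyte markers Vil1 was at 0 in all 9 tumors, and the summed FPKM of the 7 markers was 5.18 to 9.27 in PBS, 7.03 to 9.51 in nonresponsive tumors and 13.4 to 20.3 in responsive tumors, most of it Fabp2 in the responsive tumors. The enterocyte markers did not share a direction, since Krt20 had a mean of 4.18 FPKM in PBS and 1.76 in responsive tumors, and Sis was highest in PBS tumors, at 0.98 to 1.38 FPKM.

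Apoe, whose product is the ligand for receptor uptake of remnant particles, was the most abundant member and the steadiest. Its locus, with Tomm40, had 3868, 5710.1 and 6364 FPKM in the PBS tumors, 8917, 6006 and 4864 in the nonresponsive tumors and 14258.5, 10251 and 7863 in the responsive tumors. The highest tumor exceeded the lowest by 3.69-fold, compared with 39.2-fold or more for the other members above 0 in all tumors; without PBS replicate 1 these were 2.93-fold and 6.13-fold or more. Group means were 5314 ± 1294 FPKM (SD, n = 3) for PBS, 6596 ± 2089 for nonresponsive and 10791 ± 3232 for responsive tumors. The responsive-to-PBS difference of 1.01 ± 0.43 (log2, limma adjusted p = 0.267) missed an unadjusted p of 0.05, although the 2 groups did not overlap. It reached that threshold, but no adjusted p under 0.05, under 4 alternatives, among them summing entries by symbol without joining Tomm40.

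Apoh, encoding beta-2-glycoprotein I, a phospholipid-binding plasma protein, stood at 11.1, 97.9 and 135 FPKM in the PBS tumors, 329.9, 133 and 88.2 in the nonresponsive tumors and 619, 301 and 392 in the responsive tumors. Apom, encoding the HDL carrier of sphingosine-1-phosphate, stood at 2.57, 16.4 and 26.6 FPKM in the PBS tumors, 56.6, 22.4 and 19.7 in the nonresponsive tumors and 101, 47.0 and 64.8 in the responsive tumors. For both genes nonresponsive replicate 1 again fell within the range of the responsive tumors. Against nonresponsive tumors Apoh differed by 1.41 ± 0.54 (log2, limma adjusted p = 0.835) and Apom by 1.18 ± 0.48 (limma adjusted p = 0.835). Against PBS the differences were 2.94 ± 0.94 for Apoh (limma adjusted p = 0.246) and 2.51 ± 0.79 for Apom (limma adjusted p = 0.246).

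The spread between tumors exceeded the error of most single estimates. The bounds that Cufflinks gives for each FPKM lay a median of 5.08% to either side of it over the 89 member estimates above 0, with a range from 3.09% to 65.4%, the widest being Apoa5 in PBS replicate 1. The coefficient of variation between the 3 tumors of a group was 24.4% to 101% in PBS, 31.7% to 92.0% in nonresponsive tumors and 29.9% to 80.1% in responsive tumors, leaving out Apoa4.

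**Figure D2:**
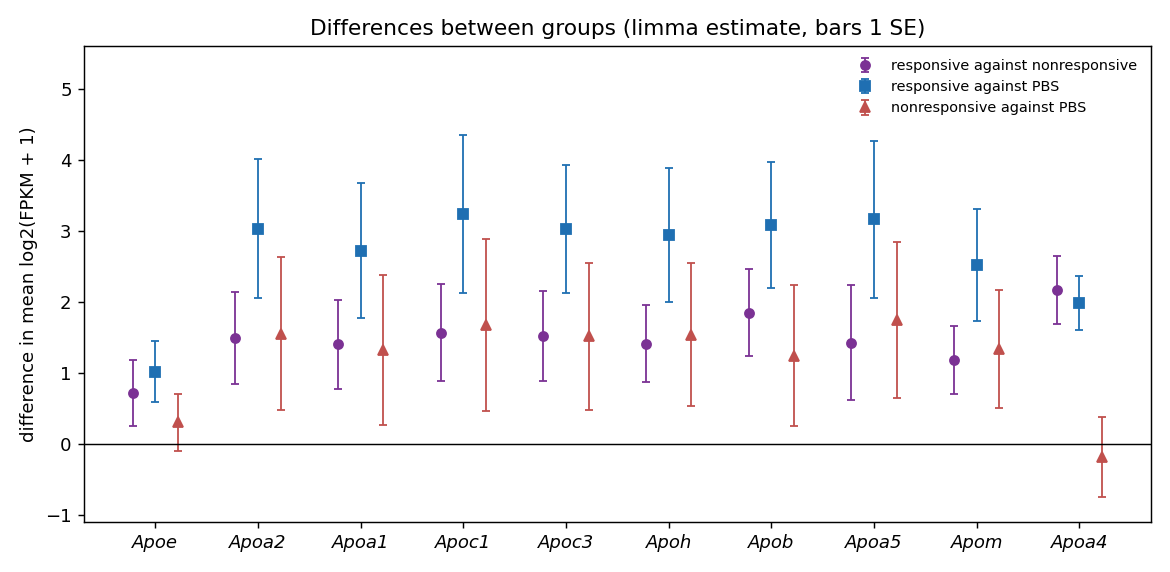
Difference in mean log2(FPKM + 1) for each apolipoprotein gene in the 3 comparisons, as estimated by limma, with bars of ± 1 SE (3 tumors a group). Differences between responsive and PBS tumors run from 1.01 for Apoe to 3.23 for Apoc1, those between responsive and nonresponsive tumors from 0.71 to 2.17, and those between nonresponsive and PBS tumors from -0.19 for Apoa4 to 1.74 for Apoa5.

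Anti-PD-1 antibody-responsive tumors were first set against PBS tumors, the comparison of the smallest treated tumors with untreated ones. All 10 genes had higher means in the responsive tumors, and for all 10 the 2 groups did not overlap, against 11.8% of all 12715 loci tested. An unadjusted limma p under 0.05 was reached by 9 of the 10, all but Apoe, and all 9 were higher, against 19.1% of loci in either direction and 9.12% in this direction. None of the 10 passed at an adjusted p under 0.05 (range 0.246 to 0.267), a threshold met by 0.149% of all loci. The median difference of the members was 2.98 (log2), beside -0.11 over all loci. Leaving out PBS replicate 1 lowered this median to 1.88 with 9 members at p under 0.05, while leaving out responsive replicate 1 left 3, namely Apoa4, Apob and Apoc3. For each single gene the exact two-sided permutation test gave p = 0.1, the smallest value that 3 tumors against 3 allow.

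Responsive tumors were then set against nonresponsive tumors, both antibody-treated. All 10 genes again had higher means in the responsive group, with a median difference of 1.45 (log2), beside -0.07 over all loci. Apoa4, Apob, Apoh and Apom had an unadjusted limma p under 0.05 and were higher, which is 4 of 10, against 5.93% of all 12716 loci in either direction and 4.36% in this direction. The groups did not overlap for Apoa4 and Apob only, against 5.69% of loci. None passed at an adjusted p under 0.05 (range 0.835 to 0.967), a threshold met by 0.0629% of loci. The count turned on single tumors: 9 members, all but Apoe, had p under 0.05 without nonresponsive replicate 1, and Apoa4 alone had it without nonresponsive replicate 2, nonresponsive replicate 3, responsive replicate 1 or responsive replicate 3. The median difference was 1.27 without nonresponsive replicate 2, the tumor with pancreatic genes, and 2.08 without nonresponsive replicate 1.

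Nonresponsive tumors did not differ detectably from PBS tumors. Of the 10 genes 0 had an unadjusted limma p under 0.05 and all 10 overlapped between the groups, against 3.23% of all 12663 loci with p under 0.05, 1.57% with p under 0.05 and higher, and 3.23% that did not overlap with nonresponsive tumors higher. The share of all loci with an adjusted p under 0.05 was 0.0395%, and the members' adjusted p ran from 0.700 to 0.887. The median difference was 1.42 (log2), beside -0.06 over all loci, with 9 genes at a higher nonresponsive mean and Apoa4 at -0.19 ± 0.57. It fell to 0.41 without PBS replicate 1. The 3 comparisons share tumors, and their counts are not independent of each other.

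**Figure D3:**
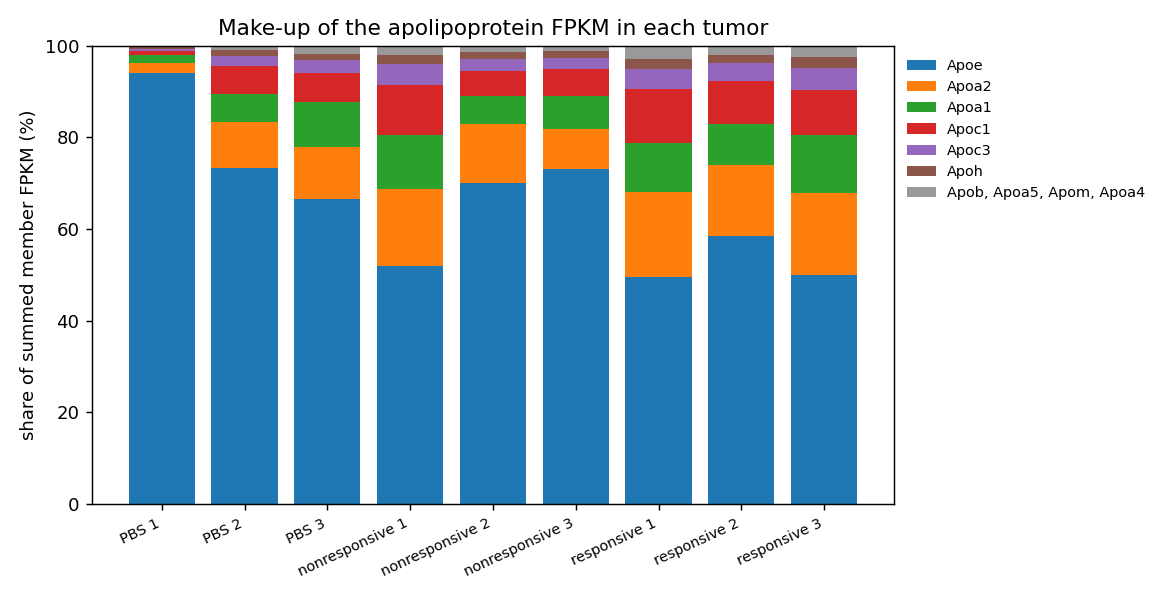
Share of the summed apolipoprotein FPKM contributed by each gene in each tumor, as stacked bars in percent. Apoe takes 94.0% in PBS replicate 1 and 49.5% in responsive replicate 1, while Apoa2, Apoa1, Apoc1 and Apoc3 together take 5.42% and 45.5% in the same tumors.

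The size and the make-up of the apolipoprotein transcript pool were set apart between responsive and PBS tumors, without overlap for the total or for the share of Apoe. The 10 loci together made up 0.996% ± 0.354 (SD, n = 3) of all FPKM assigned to named genes in PBS tumors, 1.56% ± 0.75 in nonresponsive tumors and 2.62% ± 0.89 in responsive tumors. Responsive and PBS tumors did not overlap in this share (exact permutation p = 0.1, two-sided), whereas responsive and nonresponsive tumors did (exact permutation p = 0.3). Within the pool Apoe took 94.0%, 73.3% and 66.6% in PBS, 51.9%, 70.0% and 73.0% in nonresponsive tumors and 49.5%, 58.5% and 49.9% in responsive tumors. Its share was lower in all 3 responsive tumors than in all 3 PBS tumors (exact permutation p = 0.1). Apoa2, the next most abundant, took 7.83% ± 4.94 in PBS, 12.9% ± 4.05 in nonresponsive tumors and 17.4% ± 1.55 in responsive tumors, again without overlap between responsive and PBS tumors (exact permutation p = 0.1).

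Hepatocyte markers moved with the members. Of 28 hepatocyte marker loci, which include Alb and Ttr, 25 had an unadjusted limma p under 0.05 and were higher in responsive than in PBS tumors, 15 in responsive than in nonresponsive tumors, and 2 in nonresponsive than in PBS tumors, none of them at an adjusted p under 0.05. Their median differences were 2.84, 1.36 and 1.45 (log2), close to the 2.98, 1.45 and 1.42 of the members. Their summed FPKM was 1035 to 8733 in PBS, 6325 to 18888 in nonresponsive tumors and 15579.6 to 33441.5 in responsive tumors, with at most 1 of the 28 at 0 in any tumor. Of all loci, 9.12% were higher at p under 0.05 in responsive than in PBS tumors and 4.36% in responsive than in nonresponsive tumors. The share higher in nonresponsive than in PBS tumors was 1.57%. The part of hepatocyte content in the differences was not tested, and in bulk tissue fewer cells of a type and less RNA per cell cannot be told apart. Hepatoma and fetal liver markers had median differences of -0.84 between responsive and PBS tumors, -0.29 between responsive and nonresponsive and -0.56 between nonresponsive and PBS tumors (log2), with 2, 2 and 3 of 11 loci at a higher mean in the first group. At p under 0.05 there was 1 locus lower in each, and 1 higher in both comparisons with nonresponsive tumors. Their summed FPKM was 197 to 314 in PBS, 73.4 to 376 in nonresponsive tumors and 79.4 to 256 in responsive tumors.

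Macrophages are another known source of Apoe. None of 14 macrophage marker loci had p under 0.05 between responsive and nonresponsive tumors, 2 were higher in responsive than in PBS tumors and 1 in nonresponsive than in PBS tumors, with median differences of -0.25, 0.57 and 0.78 (log2) and no locus at an adjusted p under 0.05 in limma. Their summed FPKM was 2141 to 5717 in PBS, 4484 to 10063 in nonresponsive tumors and 4181 to 11854 in responsive tumors. Against PBS tumors, 9.12% of all loci were higher in responsive and 1.57% in nonresponsive tumors at p under 0.05. Of 5 Kupffer cell markers 0 had p under 0.05 in any comparison, at summed FPKM of 4.52 to 118, 85.3 to 216 and 119 to 303. All 5 nevertheless had higher means in responsive and in nonresponsive than in PBS tumors, with median differences of 2.201 and 1.61 (log2). PBS replicate 1 was the lowest tumor for both lists, as it was for Apoe. The part of macrophages in the Apoe level was not tested.

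**Figure D4:**
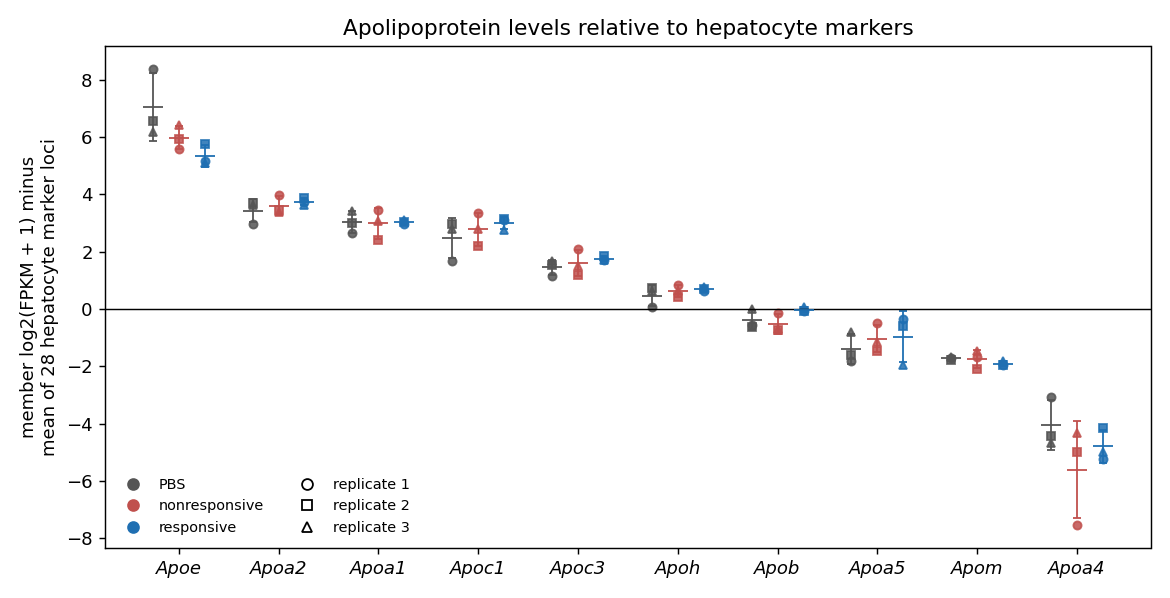
Level of each apolipoprotein gene minus the mean level of 28 hepatocyte marker loci in the same tumor, both as log2(FPKM + 1). Points are tumors (color gives the group, shape the replicate number), ticks are group means and bars ± 1 SD (n = 3). Apoa1, Apoa2, Apoc3, Apoh and Apom have group means that differ by at most 0.31, whereas Apoe is highest in the PBS tumors and lowest in the responsive tumors.

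Taken against the hepatocyte markers of the same tumor, most member differences between groups were small. Relative to the mean of the 28 marker loci, Apoa1 was at 3.03 ± 0.38 (log2, SD, n = 3) in PBS, 2.98 ± 0.53 in nonresponsive tumors and 3.03 ± 0.06 in responsive tumors, and Apoh at 0.47 ± 0.36, 0.64 ± 0.21 and 0.70 ± 0.06. The median relative difference over the members was 0.10 for responsive against nonresponsive, 0.27 for responsive against PBS and 0.06 for nonresponsive against PBS tumors. In 4 cases the groups did not overlap, each at the smallest exact permutation p of 0.1. Most other loci were lower against these markers: relative levels were lower without overlap for 92.2% of all loci in responsive against PBS tumors and for 38.1% in responsive against nonresponsive tumors, and higher for 0.0708% and 0.173%. In nonresponsive against PBS tumors no member was without overlap, against 2.96% of loci lower and 0.0474% higher. Apoe was lower in responsive than in PBS tumors by 1.70, its relative level being 8.38, 6.57 and 6.18 in PBS and 5.17, 5.77 and 5.08 in responsive tumors. That difference was -1.04 without PBS replicate 1. Apob was higher in responsive than in nonresponsive tumors, by 0.50, with relative levels of -0.07, -0.08 and 0.08 against -0.13, -0.73 and -0.71. Apoc3 was higher in responsive than in PBS tumors, by 0.31 (0.15 without PBS replicate 1 and 0.10 with a pseudocount of 0.1), and Apom was lower, with a difference of -0.20. Apoa4 varied most, from -3.07 in PBS replicate 1 to -7.53 in nonresponsive replicate 1, where it was listed at 0.

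Some members kept close ratios to each other and others did not. The log2 ratio of Apoa2 to Apoh had an SD of 0.15 over the 9 tumors, that of Apoa2 to Apoc3 0.15 and that of Apoc3 to Apoh 0.16, while each gene ranged over 51.9-fold or more, or 7.02-fold or more without PBS replicate 1. Pairs with Apoa5 were wider, from 0.46 with Apoc1 to 0.65 with Apom, and wider still with Apoe (1.36) and Apoa4 (1.58). The ratio SD of Apoc1 to Apom was 0.54. Apoa1 and Apoc3, neighbours in the chromosome 9 cluster, had a ratio SD of 0.19, and Apoa5 of the same cluster had one of 0.53 to Apoa1. Apoa4 had ratio SDs of 1.39 to Apoa1 and 1.42 to Apoc3. Apoa4 was lowest against both in nonresponsive replicate 1, where it was listed at 0. It was highest against both in PBS replicate 1, at 0.389 FPKM, where the pseudocount of 1 weighs most. These SDs therefore do not show whether Apoa4 followed its neighbours. Apoc1 and Apoe, neighbours on chromosome 7, had a ratio SD of 1.41, beside SDs of 1.92 and 0.58 (log2) for each gene alone. The tumors nevertheless stood in the same order for both genes within each group. A ratio SD also grows where 1 gene spreads more widely than the other, so it does not measure whether they vary together. These are descriptions over 9 tumors that share the same libraries.

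The single genes with the most similar profiles were named by the root mean square difference of centred log2(FPKM + 1) over the 9 tumors, among 11030 genes outside the members. For Apoh these were Gjb1 (0.097), Asgr1 (0.111) and Slc27a5 (0.116), for Apom C8a (0.115), Tmprss6 (0.118) and Agt (0.121), and for Apoa1 F12 (0.146), 1300017J02Rik (0.185) and Azgp1 (0.189). Nearest to Apoa2 were Gnmt (0.146), Hpd (0.177) and Mettl7b (0.179), and to Apoc3 Gnmt (0.162), Mettl7b (0.196) and Acsm1 (0.198). To Apob they were Sult2a8 (0.247), Slc27a2 (0.268) and Gnmt (0.281), and to Apoc1 Fabp1 (0.239), Gnmt (0.244) and Mettl7b (0.270). Apoe was nearest to Acadvl (0.143), Mlycd (0.144) and Pdk2 (0.149), none of which was among the 3 nearest to another member, and its own nearest member, Apom, was 0.88 away. These distances were not scaled to the spread of each gene, an SD of 0.58 for Apoe and 1.68 for Apoh (log2). They therefore do not compare directly between members, and a gene of small spread lies far from those of large spread. For Apoa5 the nearest were Mup19 (0.296), Mup18 (0.362) and Mup8 (0.393), near-identical genes among which reads may have been split. The nearest to Apoa4 were Gm10680 (0.340), 2610528J11Rik (0.388) and Dsg2 (0.508), all listed at 0 in at least 1 tumor.

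Other apolipoprotein genes were described alongside. Of 15 loci tested, 6 had p under 0.05 and were higher in responsive than in PBS tumors, 1 in responsive than in nonresponsive tumors and 0 in nonresponsive than in PBS tumors, with 0 at an adjusted p under 0.05. The shares of all loci higher in these comparisons were 9.12%, 4.36% and 1.57%. Clu, encoding clusterin or apolipoprotein J, was at 270, 446 and 610 FPKM in PBS, 624, 365 and 371 in nonresponsive tumors and 932, 675 and 836 in responsive tumors. It was the 1 locus counted as higher in responsive than in nonresponsive tumors, by 0.88 (log2, limma adjusted p = 0.835). A count of 1 of 15 is near the share of all loci. The acute-phase HDL proteins Saa1 and Saa2 did not reach an unadjusted p of 0.05 in any comparison. The locus of Saa1, joined with Saa3, was at 283, 3552 and 3164 FPKM in PBS, 11690 in nonresponsive replicate 1, 3135 and 2233 in the other nonresponsive tumors, and 9004, 2859 and 4100 in responsive tumors. Its responsive-to-nonresponsive difference was 0.12 (log2), and that of Saa2 was 0.33.

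Genes that assemble, remodel and take up lipoproteins were split. Of all loci, 9.12% were higher at p under 0.05 in responsive than in PBS tumors and 4.36% in responsive than in nonresponsive tumors. The share higher in nonresponsive than in PBS tumors was 1.57%. In either direction these shares were 19.1%, 5.93% and 3.23%. In the list for assembly and Apob mRNA editing 5 of 17 loci were higher and 1 lower at p under 0.05 in responsive against PBS tumors, 2 were higher against nonresponsive tumors, and 0 differed between nonresponsive and PBS tumors. Its most abundant genes, P4hb, Surf4 and Sar1b, did not reach this threshold in any of these, with responsive-to-PBS differences of 0.20, 0.35 and 0.27 (log2). Mttp, named after its values were seen because its product loads lipid onto apolipoprotein B, was at 3.78, 8.56 and 8.36 FPKM in PBS and 29.5, 13.5 and 23.4 in responsive tumors (difference 1.55 on the log2 scale). In the list of lipases, lipid transfer and HDL remodelling genes 8 of 16 loci were higher in responsive than in PBS tumors, 3 higher than in nonresponsive tumors, and 2 were higher in nonresponsive than in PBS tumors. Among the 8 were the locus of Lcat, the enzyme that esterifies HDL cholesterol, joined with Slc12a4, and the locus of the HDL-bound paraoxonases Pon1 and Pon3, joined with Pon2 and Gm44250. They differed between responsive and PBS tumors by 1.71 and 0.91 (log2), and both were also among the 3. Pltp, joined with Neurl2 and Spata25 and encoding phospholipid transfer protein, was 1 of the 2. Of 17 receptor loci, 2 were higher and 2 lower in responsive against PBS tumors, 1 was lower against nonresponsive tumors and 1 was higher in nonresponsive than in PBS tumors. The receptor counts of responsive tumors were near the shares of all loci. The most abundant receptor loci were Sort1 (joined with Psma5 and Gm12525), Sdc1 and Lrp1, with responsive-to-PBS differences of -0.39, 0.31 and 0.57 (log2). Lrp1, encoding a remnant receptor, had group means of 46.7, 85.8 and 73.8 FPKM for PBS, nonresponsive and responsive tumors and did not reach p under 0.05 in any comparison. The receptor list had no common direction, with a median of 0.31 against PBS and -0.22 against nonresponsive tumors. None of these loci passed at an adjusted p under 0.05 in limma.

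Of 22 loci of transcriptional regulators of apolipoprotein genes, 11 were higher at p under 0.05 in responsive than in PBS tumors. Higher than in nonresponsive tumors were 3, 1 was lower in nonresponsive than in PBS tumors, and 0 had an adjusted p under 0.05. The shares of all loci higher in responsive tumors were 9.12% and 4.36%, and 3.23% differed in either direction between nonresponsive and PBS tumors. Of the most abundant regulators Cebpa was higher in responsive than in PBS tumors, by 1.35 (log2), while Cebpb and Nr1h2 missed the threshold. Hnf4a, a nuclear receptor that drives many hepatocyte genes and was named after its values were seen, was at 12.6, 11.2 and 12.4 FPKM in PBS, 23.7, 12.8 and 12.4 in nonresponsive tumors and 38.3, 24.7 and 39.0 in responsive tumors. Its responsive tumors lay above all others, and it was among the genes counted in both comparisons, with differences of 1.40 from PBS and 1.05 from nonresponsive tumors (log2). Among the 11, Nr1h3 was measured only as a locus joined with Madd and Gm13783 that was listed at 0 in 3 tumors.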

How the data were processed

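RNA of 9 tumors (3 per group, grouped by GEO's labels) was sequenced from Illumina TruSeq libraries. The submitters' processing notes name Bowtie2 2.2.4, TopHat2 2.1.1 and the build mm8. Per the file headers the authors deposited 1 Cufflinks gene table per tumor, with FPKM and its lower and upper bounds, normalized per transcript length and per mapped fragments. Read counts were not used here, so depth per tumor is not stated and the precision is that of the bounds. A table of the authors' own Cuffdiff comparisons (fold changes and p-values) was not used.

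Entries were joined by gene symbol, genes sharing an entry in any tumor formed 1 locus (48254 loci, 2595 of them of several genes), and 7 loci with a failed estimate were left out. Entries naming no gene were left out, and held 19.2% (PBS replicate 3) to 81.5% (PBS replicate 1) of the summed FPKM of a tumor. FPKM not being counts, log2(FPKM + 1) was fitted with limma 3.58.1 in R 4.3.3 (trend on, pairwise groups, no covariate) and Benjamini-Hochberg adjusted p. The fit was also run on simulated data, where 91.9% of loci changed by 2 (log2) and 5.25% of unchanged loci had a limma p under 0.05. The changed loci were drawn at random from all loci, each with its own spread. A typical member had a within-group SD of 1.28 (log2), so the 91.9% does not describe detection of such a change in the members. Each simulated locus varied independently, so counts over genes that vary together were not tested. Single values were compared by exact two-sided permutation tests (Python 3.11.15, scipy 1.17.1). Alternatives changed the pseudocount (0.1), the filter (none, or FPKM of at least 5), the scaling, the samples fitted, the joining of entries, the replicate block and each tumor left out.

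The members, gene lists, markers and motifs were chosen with earlier results of these data known. The result of 1 motif searched is not reported here. By rule all 10 members are named, the 3 most abundant genes of each gene list (not of the marker lists), and the 3 genes nearest to a member in profile. Fibroblast and stellate cell markers (10 loci) and endothelial cell markers (8 loci) had median differences of 0.04 and 0.41 (log2) between responsive and PBS tumors, with 1 locus each at p under 0.05.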

Additional observations from a re-analysis of the deposited data

How the results depend on the processing

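The number of members at p under 0.05 between responsive and nonresponsive tumors was 4, was 3 or 4 under the other pseudocount, filters, scaling and joining of entries, and was 1 with all 9 tumors in 1 fit. Leaving out single tumors gave 1 to 9. With the replicate number of the labels as a block it was 9, but the labels do not state that same-numbered tumors are paired. Deviations of same-numbered tumors correlated between -0.50 and 0.64, the highest being for replicate 1 of responsive and nonresponsive tumors. Such mixed values do not settle whether the numbers pair the tumors. The block gave 6 against 9 for responsive against PBS tumors and 0 for nonresponsive against PBS tumors. For responsive against PBS tumors leaving out single tumors gave 3 to 9, and no alternative gave a member at p under 0.05 for nonresponsive against PBS tumors. The median member differences kept their sign in all alternatives, with ranges over left-out tumors of 1.01 to 2.08, 1.88 to 3.65 and 0.41 to 2.14 (log2) for responsive against nonresponsive, responsive against PBS and nonresponsive against PBS tumors. Scaling by the upper quartile turned no member difference. With 1 tumor left out the Apoa4 difference of nonresponsive against PBS tumors ran from -0.58 to 0.34. Levels relative to hepatocyte markers changed sign in 26 cases of 1 gene under 1 alternative. For responsive against nonresponsive tumors the ranges over left-out tumors were -0.24 to 0.28 for Apoa1, -0.046 to 0.16 for Apoh, -0.14 to 1.47 for Apoa4, -0.24 to 0.57 for Apoa5, -0.075 to 0.50 for Apoc1 and -0.036 to 0.41 for Apoc3. For nonresponsive against PBS tumors they were -0.28 to 0.24 for Apoa1, -0.056 to 0.32 for Apoa2, -0.32 to 0.074 for Apob, -0.10 to 0.59 for Apoc1, -0.10 to 0.34 for Apoc3, -0.040 to 0.29 for Apoh and -0.17 to 0.14 for Apom. For responsive against PBS tumors Apoa1 ran from -0.18 to 0.20. With a pseudocount of 0.1 the relative differences of responsive against nonresponsive tumors were -0.034 for Apoa1 and -0.019 for Apoh, and that of Apoa1 against PBS was -0.21; summing entries by symbol gave -0.035 for the last. The cause of these changes was not tested.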
